A study of Mus musculus with 12 samples.

Results

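The genes described here are 40 named genes of DNA replication and cell division, 18 that act around S phase and 22 that act in mitosis, followed through mouse blood stem and progenitor cells exposed to tumour necrosis factor (TNF). A gene was read from the probe sets of an Affymetrix MOE430 2.0 array that the platform annotation gives to that symbol alone. Such probe sets existed for 39 of the 40 genes, 88 probe sets of the 45037 that are not controls, and each gene was represented by the one with the highest mean. Ccnb1, the main mitotic cyclin, had no probe set of its own and no value is given for it. The 39 genes were tested among 18193 in all.

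A dividing cell licenses its replication origins in G1, when Cdc6 and Cdt1 load the Mcm helicase, and fires them in S phase under cyclin E, cyclin A and the Cdc7 kinase. E2F factors drive the S phase genes, and the MuvB complex with B-Myb and FoxM1 drives the mitotic genes, so the levels of both sets usually rise with the share of cells in cycle. Most haematopoietic stem cells rest in marrow and enter the cycle when cultured with growth factors, and TNF is an inflammatory cytokine that affects their survival and growth.

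Cells were c-Kit+, Sca-1+, lineage-negative (KSL) marrow cells of mice aged 2 to 4 months. They were wild-type or Fancc-/-, the latter lacking by label a subunit of the Fanconi anaemia complex that repairs DNA crosslinks. All 4 groups, of 3 arrays each, had 24 h of culture with 10% serum, IL-6 at 20 ng/ml, IL-11 at 10 ng/ml, Flt3 ligand at 50 ng/ml and stem cell factor at 10 ng/ml, and the treated groups also received TNF at 10 ng/ml from plating. The design allows the effect of TNF to be read in either genotype, the effect of genotype with or without TNF, and the difference between the TNF responses. No freshly isolated cells were analysed here, so every level is one after a day in growth factors. Replicates are not stated to be separate mice, and the p-values therefore rest on a spread between these samples that may in part be technical.

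Fancc read 8.22 to 8.65 on the wild-type arrays and 8.73 to 9.16 on those labelled mutant (log2), so its signal was not lower there; where its probe sets lie relative to the disrupted part is not known here, and genotype is given as labelled. Of the KSL markers, Kit read 9.95 to 10.77 and Cd34 12.81 to 13.13, while Ly6a, which encodes Sca-1, had no probe set of its own. Slamf1, a marker of the most primitive stem cells, was low at 3.33 to 4.51. Cd3e of T cells read 3.13 to 3.69, in a table whose lowest value was 2.14. Myeloid markers were not low: on untreated arrays the median level of the granulocyte list was 9.69 to 11.51. That of the monocyte, macrophage and dendritic list was 10.79 to 11.50, beside 10.95 to 11.40 for the KSL list. Of the erythroid markers, Hba-a1 read 2.78 to 3.45 and Klf1 5.17 to 6.29, while Tfrc, the transferrin receptor of dividing cells in general, read 12.98 to 13.44. Xist was low on 3 untreated arrays (5.06 to 5.47) and at least 12.04 on the other arrays, and the Y-linked Eif2s3y was low on 2 arrays (4.16 and 3.79), 1 untreated and labelled mutant and 1 treated and wild-type. Sex was therefore not balanced between groups, and in every group but the treated mutant one the replicates did not all share the same animals. The first untreated wild-type array stood apart, being the highest or lowest of the 12 for 34.6% of all genes, against 9.8% to 21.6% for each of the others.

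TNF left the level of most S phase and mitosis genes, each read from its brightest probe set, within a narrow range. Averaged over genotype, Nusap1 and Tk1 rose and Cdc6 fell, by 1.31-fold, 1.19-fold and 1.18-fold, and the other 36 measured genes did not pass. The 3 called genes of 39 compare with 12.1% of all genes called in that comparison (5.81% higher and 6.32% lower; limma, adjusted p under 0.05 after Benjamini-Hochberg adjustment over all genes). With arrays centred on their medians the split over all genes was 4.68% higher and 7.8% lower. The median difference of the 39 was 0.03 on the log2 scale, beside -0.03 over all genes, and 22 lay above 0 and 17 below. At an unadjusted p under 0.05 there were 11 of the 39, against 26% of all genes. The arrays of the 2 treatments did not overlap for 5 genes that were higher with TNF and 1 that was lower, where 3.89% and 4.02% of all genes did so.

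**Figure D1:**
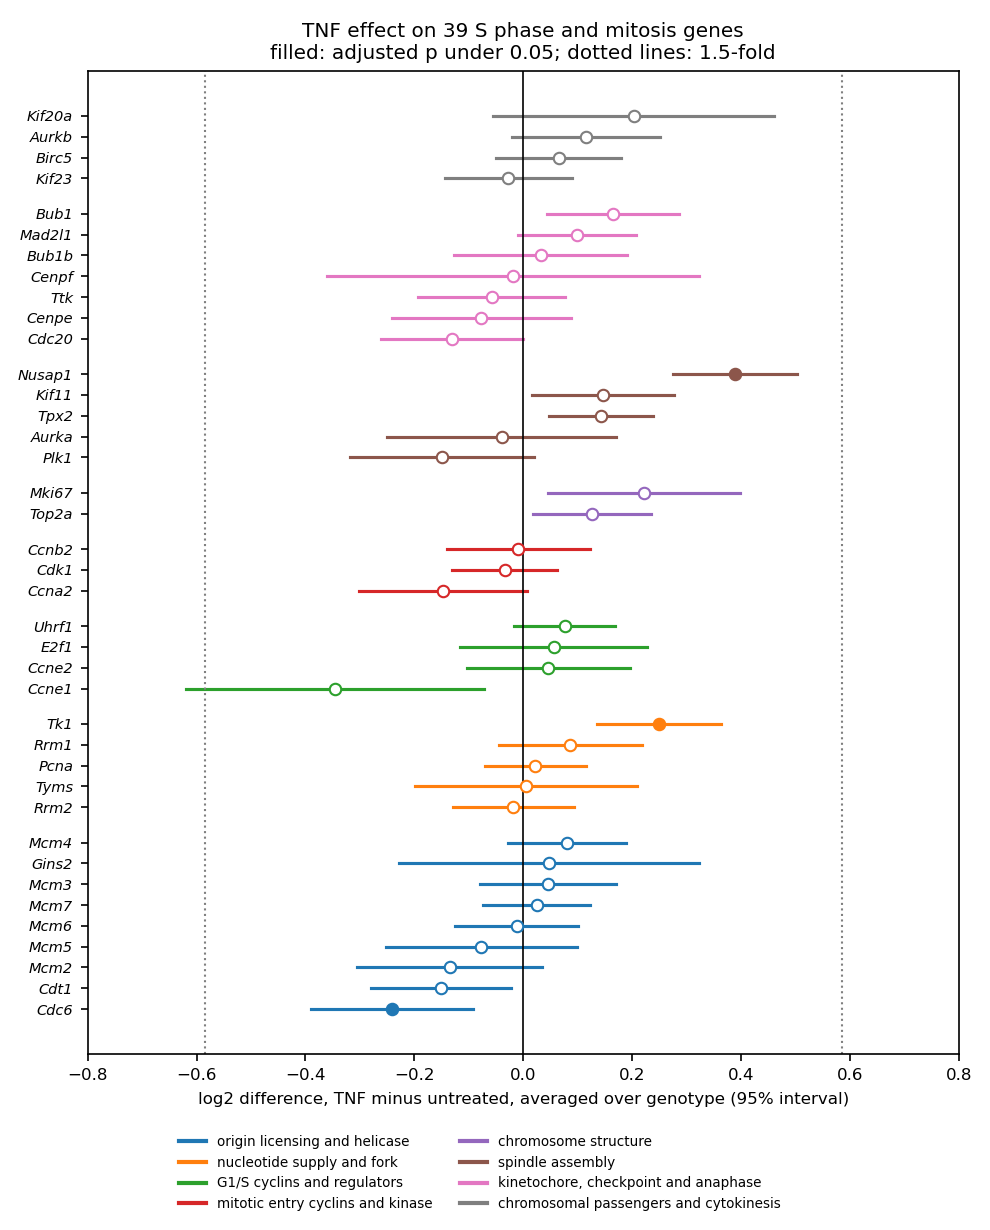
TNF minus untreated, averaged over genotype, for each of the 39 genes, as a log2 difference on the x axis with its 95% interval and genes on the y axis grouped by role; filled points passed limma's adjusted p. Nusap1, Tk1 and Cdc6 are the filled points, and only the interval of Ccne1 crosses a dotted line, which marks 1.5-fold.

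The intervals were narrow enough to bound the difference at the probe set used for most of the genes. They do not bound it at other probe sets, some of which gave larger differences, listed under other observations. The 95% interval of the averaged TNF difference lay within 1.5-fold in either direction for 38 of 39, all but Ccne1, and for 83.1% of all genes. Its median half-width was 0.13 on the log2 scale for these genes and 0.19 for all genes. Each read from its brightest probe set, the 39 genes varied little between arrays. The range of a gene over the 12 arrays had a median of 0.38, from 0.10 for Pcna to 1.01 for Cenpf, beside 0.56 for all genes. Their levels were unlike, with array medians of 11.55 to 11.81 for the 39 genes and 7.36 to 7.55 for all genes. The part of signal level in the smaller range was not tested. Some dimmer probe sets of the same genes varied more, such as an Rrm1 probe set at 8.99 to 10.45, while that used here read 11.93 to 12.22. In RNA from a whole culture, fewer cells of a type and less RNA per cell cannot be told apart.

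The promoters shown are those of the 3 called genes and of Cdk1, the mitotic kinase. Tk1 and Cdc6 are among the S phase genes and Nusap1 and Cdk1 among the mitotic ones, and their promoters differ in the cell cycle motifs that they hold. Each run is the 250 bases before the RefSeq start site in GRCm38.p6, 5′ to 3′ on the gene's strand, with motif matches in capitals; Cdk1 was chosen after its values were seen. Nusap1 lies at chr2:119618048-119618297 (+), Tk1 at chr11:117826015-117826264 (-), Cdc6 at chr11:98907901-98908150 (+) and Cdk1 at chr10:69352913-69353162 (-).
Nusap1: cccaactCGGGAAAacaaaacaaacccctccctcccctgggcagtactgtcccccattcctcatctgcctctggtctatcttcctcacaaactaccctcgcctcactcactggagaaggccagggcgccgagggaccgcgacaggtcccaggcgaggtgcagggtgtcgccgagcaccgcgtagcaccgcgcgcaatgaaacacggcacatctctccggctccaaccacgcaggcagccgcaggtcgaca
Tk1: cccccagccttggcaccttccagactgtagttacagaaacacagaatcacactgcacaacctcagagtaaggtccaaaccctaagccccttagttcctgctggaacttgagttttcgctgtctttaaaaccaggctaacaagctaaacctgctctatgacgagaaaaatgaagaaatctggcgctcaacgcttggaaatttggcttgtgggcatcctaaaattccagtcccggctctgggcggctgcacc
Cdc6: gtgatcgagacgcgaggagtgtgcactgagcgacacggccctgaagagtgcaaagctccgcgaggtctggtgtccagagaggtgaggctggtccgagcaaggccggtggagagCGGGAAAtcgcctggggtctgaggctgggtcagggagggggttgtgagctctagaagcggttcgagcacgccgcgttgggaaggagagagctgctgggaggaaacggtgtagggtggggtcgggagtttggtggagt
Cdk1: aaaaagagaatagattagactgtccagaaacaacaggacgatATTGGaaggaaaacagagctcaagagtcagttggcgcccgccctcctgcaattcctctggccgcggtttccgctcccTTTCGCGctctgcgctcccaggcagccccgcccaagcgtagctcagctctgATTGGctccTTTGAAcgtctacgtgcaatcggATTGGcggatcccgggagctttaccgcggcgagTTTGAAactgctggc
The motifs searched, on both strands, were the cell cycle homology region (CHR, TTTGAA or TTCGAA), the CCAAT box (CCAAT) and E2F-type sites (the letters TTTCGCG, the letters TTTGGCG or the letters TTTCCCG). Nusap1 and Cdc6 each held 1 E2F-type match, 243 and 137 bases before the start, both read on the opposite strand, and Tk1 held none of the letters. Cdk1 held 2 CHR matches, 71 and 15 bases before the start, 3 CCAAT boxes on the opposite strand, and 1 E2F-type match.

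Promoters of 33 of the 40 genes, 35 in all, were in the table; Ccne2, Gins2, Kif20a, Mcm4, Ccna2, Aurkb and Tpx2 were not. A CCAAT box lay in 26 of the 35 (74.3%), against 33.8% of 32851 promoters of the same length. E2F-type matches were in 8 (22.9%), against 4.6%, and a CHR in 9 (25.7%), against 17.1%. The CHR was in 7 of 18 promoters of mitotic genes (38.9%) and 2 of 17 of S phase genes (11.8%). Top2a, the enzyme that untangles chromosomes, held the most of both, 4 CHR and 6 CCAAT matches. These are letter matches, not measured binding.

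Among the origin licensing and helicase genes 1 of 9 passed. Cdc6, which loads the Mcm helicase, read 11.50, 11.19 and 11.22 untreated and 11.11, 11.00 and 11.10 with TNF in wild type (log2), and 11.33, 11.36 and 11.17 against 11.02, 11.00 and 11.09 on the arrays labelled mutant. Every treated array was below every untreated one in both genotypes. Averaged over genotype Cdc6 fell by 0.24 on the log2 scale (SE 0.067, limma adjusted p = 0.0408), and the separate differences of -0.23 for wild type and -0.25 for mutant did not pass (adjusted p = 0.222 and 0.209). The call was lost in 11 of 20 alternatives, among them 9 of the 12 that left out an array (adjusted p 0.0503 to 0.0990); it was kept without the first or the second untreated wild-type array or the third untreated array labelled mutant. The first untreated wild-type array was its highest, and without it the difference was -0.19 (adjusted p = 0.0490).

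Cdt1, the partner of Cdc6 in loading, read 13.24, 13.03 and 13.01 untreated and 12.91, 12.78 and 12.88 with TNF in wild type, and 12.95, 13.12 and 13 against 12.94, 12.95 and 12.98 on the arrays labelled mutant. The wild-type groups did not overlap, and the others did. The averaged difference was -0.15 (95% interval -0.28 to -0.02, limma adjusted p = 0.129). A dimmer probe set of Cdt1 gave -0.28, which passed when every probe set was tested (adjusted p = 0.0240). Mcm2, a helicase subunit, read 12.46, 12.05 and 12.11 untreated and 12.15, 11.94 and 12.05 with TNF in wild type, and 12.08, 12.22 and 12.09 against 11.96, 12.03 and 12.07 on the arrays labelled mutant. Its groups overlapped in wild type, and the averaged difference was -0.14 (95% interval -0.31 to 0.03). The other helicase genes, Mcm3 to Mcm7 and Gins2 of the GINS complex, had averaged differences from -0.08 (Mcm5) to 0.08 (Mcm4), and none passed.

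Of the 5 genes of nucleotide supply and the replication fork, Tk1 passed. It encodes thymidine kinase, which salvages thymidine for DNA synthesis. It read 11.32, 11.31 and 11.40 untreated and 11.54, 11.57 and 11.49 with TNF in wild type, and 11.18, 11.19 and 11.28 against 11.63, 11.43 and 11.53 on the arrays labelled mutant. All 6 treated arrays were above all 6 untreated ones. The averaged rise was 0.25 (SE 0.052, limma adjusted p = 0.00933). It was 0.31 on the arrays labelled mutant (SE 0.073, adjusted p = 0.0378), a call lost in 14 of 21 alternatives, 10 of them with 1 array left out, and 0.19 in wild type, which did not pass. With covariates for the levels of Xist and Eif2s3y the averaged difference was 0.20 and did not pass (adjusted p = 0.119).

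Pcna, the sliding clamp of the DNA polymerases, was the steadiest member. It read 13.82, 13.75 and 13.75 untreated and 13.81, 13.78 and 13.79 with TNF in wild type, and 13.75, 13.72 and 13.75 against 13.75, 13.77 and 13.79 on the arrays labelled mutant. The groups overlapped, and the averaged difference was 0.02 (95% interval -0.07 to 0.12). Tyms (thymidylate synthase), Rrm1 and Rrm2 (ribonucleotide reductase) had averaged differences of 0.01, 0.09 and -0.02. None of them passed.

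None of the 4 G1/S cyclins and regulators passed. Ccne1 (cyclin E1) read 10.47, 10.23 and 10.55 untreated and 10.55, 9.92 and 10.11 with TNF in wild type, and 10.61, 10.78 and 10.36 against 10.19, 9.88 and 10.28 on the arrays labelled mutant. The groups did not overlap on the arrays labelled mutant, where the difference was -0.47 (limma adjusted p = 0.194), and overlapped in wild type, where the first treated array was as high as the highest untreated one. The averaged difference of -0.35 was the largest decrease among the members, with a wide interval (95% interval -0.62 to -0.07, adjusted p = 0.101). It passed with arrays centred on their medians (-0.38, adjusted p = 0.0390), with the mean of its probe sets (-0.35, adjusted p = 0.0328) and without the first treated wild-type array (-0.44, adjusted p = 0.0284). A second, slightly dimmer Ccne1 probe set read 10.09 to 10.32 on untreated arrays and 9.71 to 10.05 on treated ones, so there the treatments did not overlap. Ccne2 (cyclin E2), E2f1, a transcription factor of S phase genes, and Uhrf1, which maintains DNA methylation at the fork, had averaged differences of 0.05, 0.06 and 0.08.

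**Figure D2:**
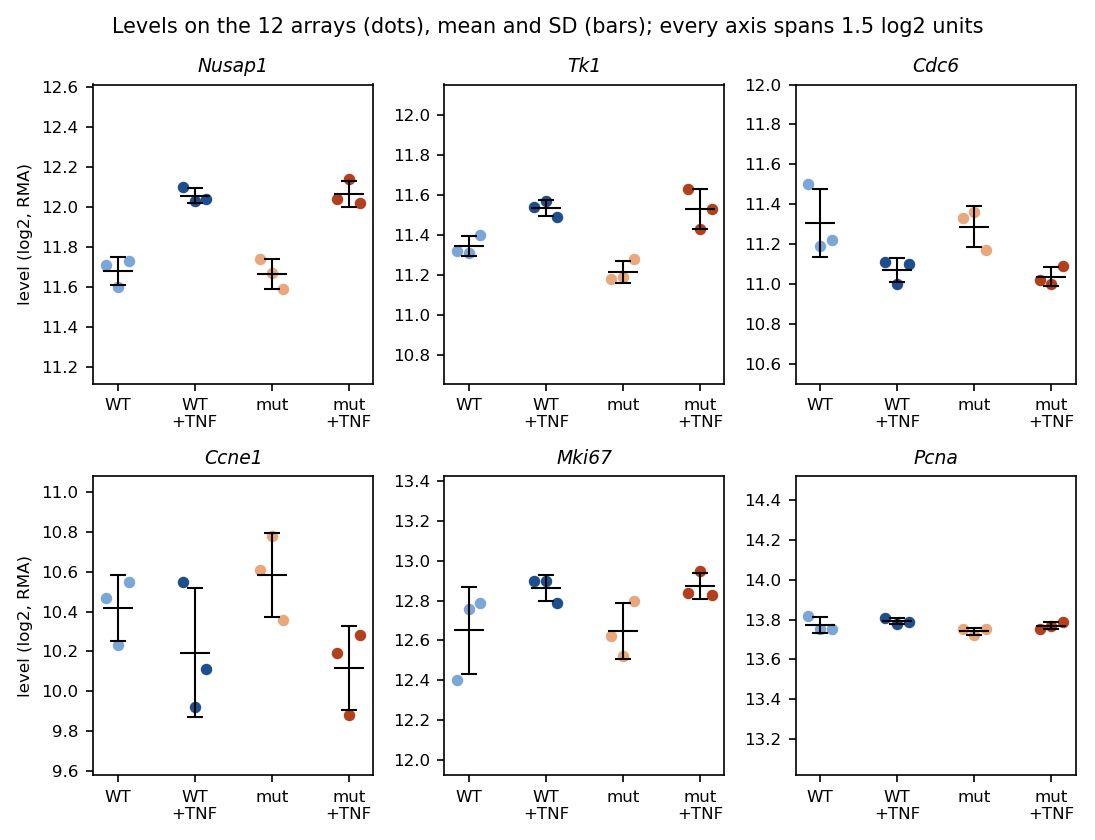
Level (log2, RMA) on the y axis of 6 genes on the 12 arrays by group on the x axis; dots are arrays, bars the mean and SD of 3, and every axis spans 1.5 log2 units. Nusap1 and Tk1 are higher and Cdc6 lower on the treated arrays of both genotypes, Ccne1 is widely spread, and the Pcna values lie within 0.10.

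In mitosis 1 of 21 measured genes passed, Nusap1, which encodes a protein that binds and bundles spindle microtubules around chromosomes. It read 11.71, 11.60 and 11.73 untreated and 12.10, 12.03 and 12.04 with TNF in wild type, and 11.74, 11.67 and 11.59 against 12.04, 12.14 and 12.02 on the arrays labelled mutant. No treated array overlapped an untreated one. The averaged rise was 0.39 (SE 0.051, 95% interval 0.28 to 0.50, limma adjusted p = 0.000665), the largest of the 39, and it passed in 20 of 20 alternatives. Nusap1 rose by 0.38 in wild type (SE 0.073, adjusted p = 0.0137) and by 0.40 on the arrays labelled mutant (SE 0.073, adjusted p = 0.0108). The latter call was lost without the second treated array labelled mutant (adjusted p = 0.0502). A second, dimmer Nusap1 probe set gave 0.42, which passed when every probe set was tested (adjusted p = 0.0184).

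The other spindle genes moved less. Tpx2, an activator of Aurora A, had levels of 12.01, 12.11 and 12 untreated and 12.19, 12.18 and 12.19 with TNF in wild type, and 12.05, 12.03 and 12.08 against 12.19, 12.19 and 12.18 on the arrays labelled mutant. Its treated arrays were all above its untreated ones, though the averaged difference of 0.14 did not pass (limma adjusted p = 0.0563), and a second probe set gave -0.12. Kif11, the motor that separates the spindle poles, read 11.06, 11.31 and 11.18 untreated and 11.16, 11.38 and 11.29 with TNF in wild type, which overlap, and 11.25, 11.16 and 11.23 against 11.40, 11.43 and 11.41 on the arrays labelled mutant, which do not. Its averaged difference was 0.15 (adjusted p = 0.144). The mitotic kinases Aurka and Plk1 had differences of -0.04 and -0.15 and did not pass.

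The 2 genes of chromosome structure lay above 0 without passing. Mki67, the proliferation antigen that coats mitotic chromosomes, read 12.40, 12.76 and 12.79 untreated and 12.90, 12.90 and 12.79 with TNF in wild type, and 12.62, 12.52 and 12.80 against 12.84, 12.95 and 12.83 on the arrays labelled mutant. The first untreated wild-type array was its lowest. The averaged difference was 0.22 (95% interval 0.04 to 0.40, limma adjusted p = 0.105), and 0.16 without that array. Top2a read 12.73, 12.85 and 12.83 untreated and 12.91, 12.93 and 12.90 with TNF in wild type, and 12.82, 12.75 and 12.85 against 12.89, 13.03 and 12.92 on the arrays labelled mutant. Its treatments did not overlap, and the averaged difference was 0.13 (adjusted p = 0.131).

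The cyclins and kinase of mitotic entry lay slightly below 0. Cdk1 read 12.88, 12.83 and 12.84 untreated and 12.82, 12.81 and 12.75 with TNF in wild type, and 12.81, 12.88 and 12.90 against 12.85, 12.87 and 12.84 on the arrays labelled mutant. The averaged difference of Cdk1 was -0.03 (95% interval -0.13 to 0.06), with overlap on the arrays labelled mutant. Ccna2 (cyclin A2) read 12.85, 12.54 and 12.61 untreated and 12.59, 12.39 and 12.50 with TNF in wild type, and 12.58, 12.78 and 12.60 against 12.60, 12.49 and 12.51 on the arrays labelled mutant. Its groups overlapped in both genotypes, and the averaged difference was -0.15 (limma adjusted p = 0.212). Ccnb2 (cyclin B2) had -0.01.

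None of the 7 kinetochore, checkpoint and anaphase genes passed. Bub1, a checkpoint kinase, read 11.26, 11.27 and 11.31 untreated and 11.49, 11.45 and 11.37 with TNF in wild type, and 11.26, 11.18 and 11.00 against 11.35, 11.29 and 11.30 on the arrays labelled mutant. Treated and untreated arrays were apart within each genotype, and the averaged difference was 0.16 (95% interval 0.04 to 0.29, limma adjusted p = 0.0803). Cdc20, the activator of the anaphase-promoting complex, read 12.26, 12.04 and 12.14 untreated and 11.99, 12.04 and 11.86 with TNF in wild type, and 12.04, 12.16 and 12.04 against 12.03, 12.04 and 11.93 on the arrays labelled mutant. These groups met or overlapped, with an averaged difference of -0.13 (adjusted p = 0.192). The checkpoint genes Bub1b, Ttk and Mad2l1 and the kinetochore genes Cenpe and Cenpf lay between -0.08 and 0.10. Of the chromosomal passengers and cytokinesis genes, Aurkb (Aurora B), Birc5 (survivin), Kif20a and Kif23 had differences of 0.12, 0.07, 0.20 and -0.03, and none passed.

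**Figure D3:**
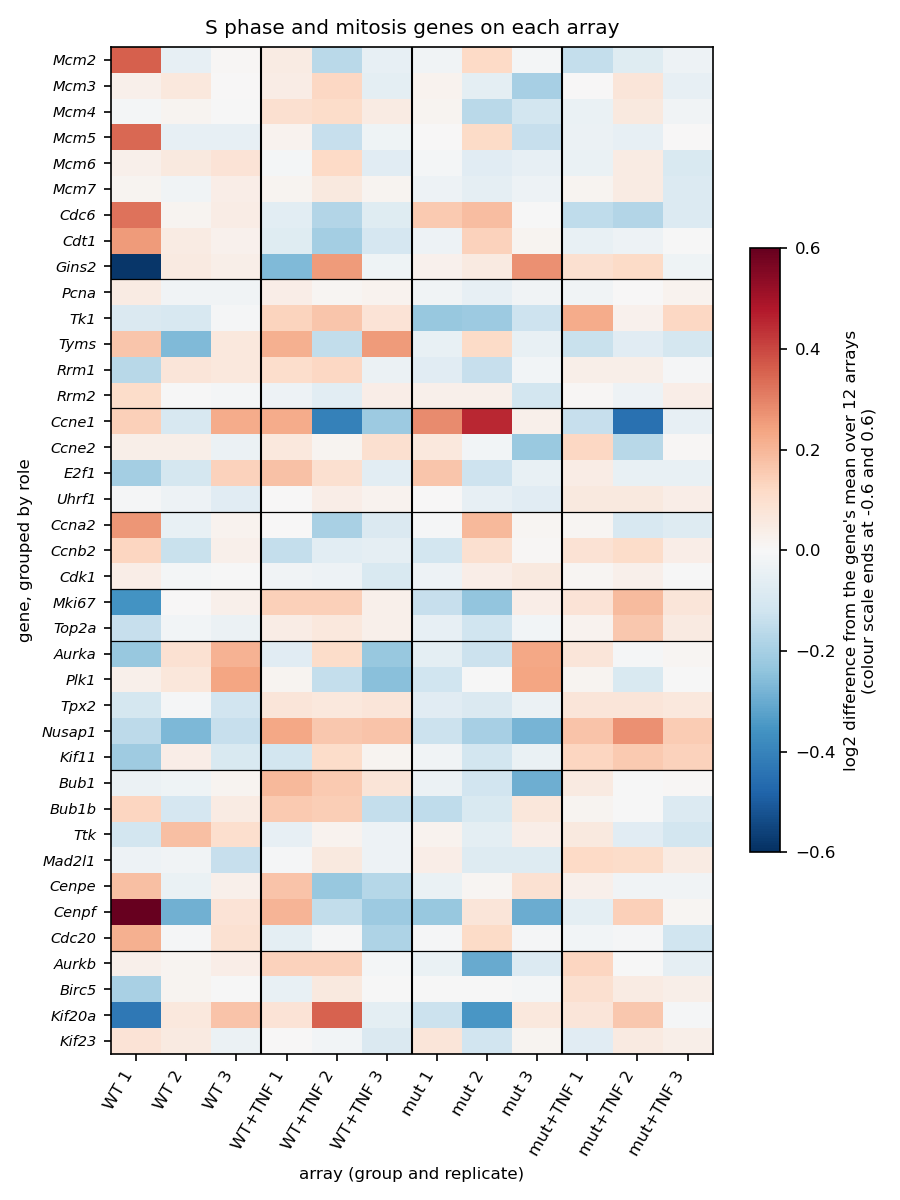
Each of the 39 genes (rows, grouped by role) on each of the 12 arrays (columns, group and replicate), coloured by the log2 difference from the gene's mean over all arrays; WT is wild type and mut the arrays labelled mutant. The first untreated wild-type array is at an extreme for 21 genes, and the Nusap1 row is low on all untreated and high on all treated arrays.

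That first untreated wild-type array was the highest of the 12 for 12 genes and the lowest for 9, against 2 to 12 genes at either extreme on each other array. Cenpf read 11.03 there and 10.02 to 10.52 elsewhere, and Gins2 read 10.47 there and 10.79 to 11.33 elsewhere. Leaving it out gave the same 3 calls for the averaged TNF effect.

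Within wild type, TNF passed for Nusap1 alone, 1 of 39 beside 5.02% of all genes (2.69% higher and 2.33% lower). On the arrays labelled mutant it passed for Nusap1 and Tk1, 2 of 39 beside 4.31% of all genes (2.45% higher and 1.86% lower), and no member passed as lower in either genotype. The arrays of the treatments did not overlap in wild type for 7 members that were higher (8.87% of all genes) and 4 that were lower (11.7%). On the arrays labelled mutant these counts were 11 (10.4%) and 4 (15.8%). The 2 genotypes were measured on separate arrays, and the TNF differences had the same sign in 30 of 39 genes. Over all genes 13135 of 18193 had the same sign. Pearson's r was 0.712 over the 39 genes and 0.827 over all genes, and Spearman's rho was 0.684 and 0.601, a description over genes, which are not independent and are measured on the same arrays.

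**Figure D4:**
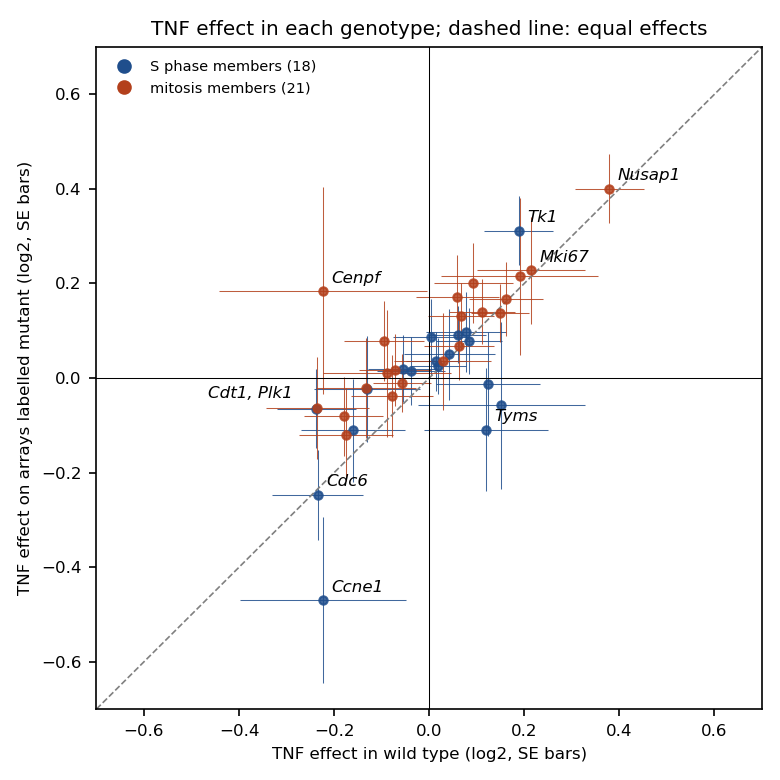
TNF difference in wild type (x axis) against that on the arrays labelled mutant (y axis), both log2 with SE bars, for the 39 genes; the dashed line marks equal differences. Nusap1 lies near the line at 0.38 and 0.40, and Cenpf and Ccne1 lie farthest from it with wide bars.

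No member passed for the difference between the 2 TNF responses, where 0% of all genes passed in limma, and 0 of 39 reached an unadjusted p under 0.05, against 2.9% of all genes. The difference, mutant minus wild type, was above 0 in 32 of 39 genes, 20 of 21 in mitosis and 12 of 18 in S phase, beside 9084 of 18193 in all. Its median was 0.04. The genes share their arrays and the count carries no test. In the lists of other cell cycle genes described below, 9 of 36 replication factors and 32 of 47 mitotic factors lay above 0. So did 13 of 18 G1 regulators and CDK inhibitors and 11 of 22 E2F, MuvB and FoxM1 regulators and phosphatases. Of the 39 members 7 lay below 0, 13 with the Xist and Eif2s3y covariates and 12 with centred arrays or with array weights. The number above 0 was 28 of 39 without the first untreated wild-type array. The largest differences were Cenpf at 0.41 (95% interval -0.28 to 1.09), which was 0.13 without that array, and Ccne1 at -0.25. The interval lay within 1.5-fold for 35 of 39, not for Ccne1, Cenpf, Gins2 and Tyms, and for 63.1% of all genes.

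Nor did genotype itself pass for any member in limma. Without TNF 0 of 39 passed beside 0.0055% of all genes, and 0 of 39 reached an unadjusted p under 0.05, against 4.12%. With TNF it was again 0 of 39 beside 0.0055%, and 0 at an unadjusted p under 0.05, against 5.6%. Averaged over treatment 0 passed beside 0.022% (0.011% higher and 0.011% lower), and only Bub1 reached an unadjusted p under 0.05, against 7.39%, with mutant minus wild type at -0.13. Untreated arrays of the genotypes did not overlap for 0 members higher in the mutant (3.82% of all genes) and 4 lower (4.28%), which were Aurkb, Mcm6, Mcm7 and Tk1. With TNF they did not overlap for 4 higher (4.2%), Ccnb2, Cdk1, Cdt1 and Kif11, and 1 lower (6.79%), Bub1. Over both treatments 0 members were apart in either direction (0.0824% and 0.143% of all genes). Cenpf had the largest untreated difference, -0.32 (95% interval -0.80 to 0.16), which was -0.05 without the first untreated wild-type array. Gins2 had 0.28, and 0.07 without it. The interval lay within 1.5-fold for 37 of 39 genes untreated (80.8% of all genes), for 39 with TNF (80%) and for 39 averaged over treatment (89.7%).

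The other cell cycle genes, in lists of known replication factors, mitotic factors, G1 regulators and transcriptional regulators, gave a similar picture for most genes and larger changes for a few. Of 123 genes measured, 6 rose and 4 fell with TNF averaged over genotype, where 5.81% and 6.32% of all genes did so. The counts were 2 higher and 1 lower of 36 replication factors, 1 and 0 of 47 mitotic factors, 1 and 2 of 18 G1 regulators and CDK inhibitors, and 2 and 1 of 22 E2F, MuvB and FoxM1 regulators and phosphatases. The list medians were 0.02, 0.07, 0.03 and 0.07, beside -0.03 over all genes.

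The largest changes were in G1 control. Cdkn1a encodes p21, the CDK inhibitor and p53 target. It read 11.31, 11.33 and 11.26 untreated and 10.33, 10.09 and 10.59 with TNF in wild type, and 11.43, 11.63 and 11.76 against 10.82, 10.38 and 10.86 on the arrays labelled mutant. All treated arrays were below all untreated ones, and it fell by 0.94 (SE 0.108, limma adjusted p = 0.000275). Ccnd2, the cyclin D2 that starts G1 progression, read 12.87, 12.98 and 12.83 untreated and 11.94, 11.99 and 11.92 with TNF in wild type, and 12.96, 12.89 and 12.94 against 12.21, 11.95 and 12.14 on the arrays labelled mutant. It fell by 0.89 (SE 0.057, adjusted p = 5.08e-06), again without overlap. Rbl1, the pocket protein p107, rose by 0.26 (adjusted p = 0.00927), a call lost with centred arrays, with the sex-linked covariates and with the mean of its probe sets, where the difference was 0.15 (adjusted p = 0.0816, 0.0653 and 0.303). Ccnd1, Ccnd3, Cdk4, Cdk6 and Cdkn1b (p27) had differences of 0.06, 0.02, 0.04, 0.07 and 0.17 and did not pass.

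**Figure D5:**
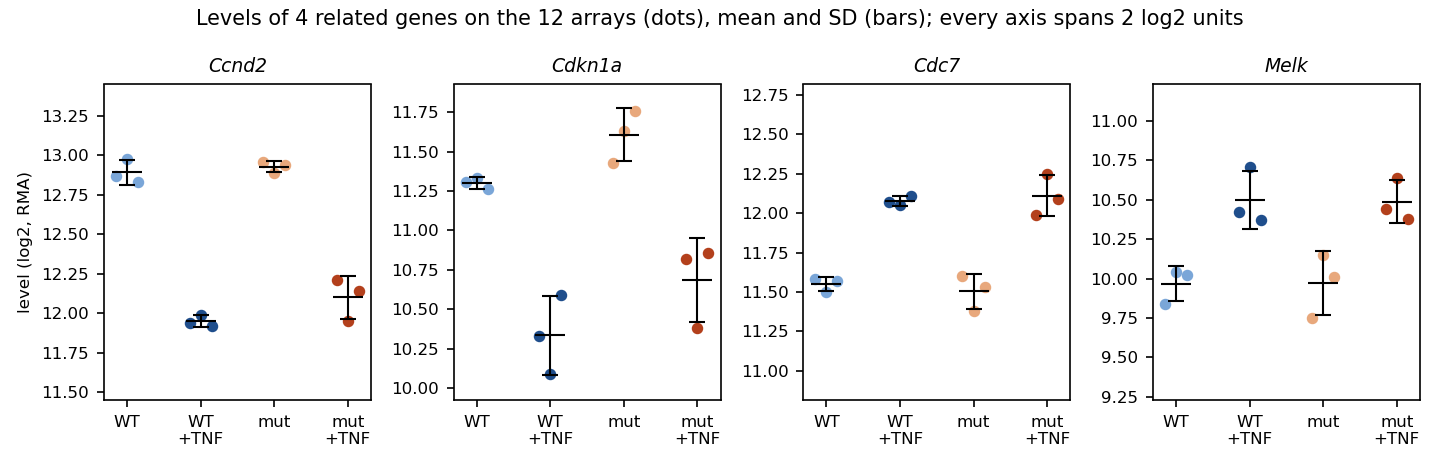
Level (log2, RMA) on the y axis of Ccnd2, Cdkn1a, Cdc7 and Melk on the 12 arrays by group on the x axis; dots are arrays, bars the mean and SD of 3, and every axis spans 2 log2 units. Ccnd2 and Cdkn1a are lower and Cdc7 and Melk higher on every treated array than on any untreated one.

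Cdc7, the kinase that fires licensed origins, read 11.58, 11.50 and 11.57 untreated and 12.07, 12.05 and 12.11 with TNF in wild type, and 11.60, 11.38 and 11.53 against 11.99, 12.25 and 12.09 on the arrays labelled mutant. It rose by 0.57 (SE 0.060, limma adjusted p = 0.000148) without overlap. Ticrr (treslin), which loads Cdc45 at origins, rose by 0.25, and the helicase gene Recql4 fell by 0.37 (adjusted p = 0.0227 and 0.0490). The Recql4 call was lost in 10 of the 12 fits that left out an array, and the Ticrr call in 4. Melk, a kinase high in dividing progenitors, read 9.84, 10.04 and 10.02 untreated and 10.42, 10.71 and 10.37 with TNF in wild type, and 9.75, 10.15 and 10.01 against 10.44, 10.64 and 10.38 on the arrays labelled mutant. It rose by 0.52 (SE 0.091, adjusted p = 0.00340) with no overlap, a call lost with the sex-linked covariates (adjusted p = 0.0709). Among the regulators, E2f7, an E2F repressor, and Fzr1 (Cdh1), an activator of the anaphase-promoting complex, rose by 0.38 and 0.27, and Mybl2 (B-Myb) fell by 0.44 (adjusted p = 0.00488, 0.0269 and 0.0258). The Fzr1 and Mybl2 calls were lost in 7 and 6 of the 12 fits that left out an array. The averaged differences of Cdc7, Cdkn1a, Ccnd2 and E2f7 passed in all 20 alternatives run.

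Markers of other cell types moved with TNF in the same cultures. Counts of called markers are to be read beside the 5.81% of all genes that rose and the 6.32% that fell in this comparison. Of 15 granulocyte markers 11 fell and 0 rose, and their summed level was 15.70 to 16.21 on untreated and 14.09 to 15.28 on treated arrays (log2). Mpo and Elane, enzymes of granule-forming precursors, read 13.59 to 13.69 and 11.20 to 12.62 on untreated arrays and 11.83 to 13.36 and 7.05 to 9.97 on treated ones. Of 10 monocyte, macrophage and dendritic markers 1 rose and 4 fell, with summed levels of 14.60 to 15.22 and 14.24 to 15.13, and of 6 mast cell and basophil markers 2 fell, with 11.55 to 12.22 and 9.59 to 11.42. In the stromal and endothelial list 1 of 8 fell, with 9.50 to 9.84 and 8.59 to 9.08. Calls were 2 lower of 7 erythroid, 3 lower of 8 megakaryocyte, 1 higher and 1 lower of 6 B cell and 0 of 6 T and NK cell markers. Of 7 KSL markers none passed, with 13.97 to 14.39 and 14.22 to 14.35. Their part in the differences of the cell cycle genes was not tested.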

How the data were processed

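The authors deposited log2 expression values per probe set for 12 Affymetrix arrays, made with RMA (version not given in the sources used here), per the submitters' processing notes. The log base was taken from the values (2.14 to 14.94). Per the labels' protocols, amplification for an array started from 5 to 15 ng of total RNA. RMA equalises array distributions, so a shift of all genes cannot be seen, and precision is limited by the number of arrays.

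The platform annotation gave 1 symbol to 34945 probe sets that are not controls, several to 932, and did not list 9160. A gene was represented by its single-symbol probe set with the highest mean. All genes were fitted with limma 3.58.1 in R 4.3.3 (array weights with statmod 1.5.0), 1 mean per group over 12 arrays with 8 residual degrees of freedom, two-sided, with Benjamini-Hochberg adjustment over 18193 genes. On simulated data for 18193 genes the fit for TNF in wild type recovered 82% of genes changed by 1 and 99% changed by 2 on the log2 scale. It called 10 of the genes left unchanged. Changes below 1 were not simulated, while no member difference exceeded 0.47 in size, so recovery of such differences is not known.

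The members and lists were chosen with earlier results of these data known. Values on every array were given for called members, filled up to at least 12 by the smallest unadjusted p, and for Mki67, Pcna, Mcm2, Cdk1 and Ccne1; related genes were the called ones with the highest and lowest differences. Motifs were matched exactly in RefSeq promoters. Alternatives were a replicate block, a filter keeping 9444 genes with at least 3 arrays above 7.44, averaged probe sets of a gene, every probe set, centring, cyclic loess, trended robust moderation, array weights, only the groups compared, sex-linked covariates and each array left out; applying them to the related lists was added after the data were seen. Same-numbered arrays of different groups deviated together with correlations from -0.159 to 0.278 (median 0.0465). For differently numbered arrays these were lower, from -0.331 to 0.181 (median -0.0245). The numbers were not taken as pairs because they are not said to mark a shared animal or day. Where Xist was low on an untreated array it was high on the same-numbered treated ones, so those did not come wholly from the same animals.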

Additional observations from a re-analysis of the deposited data

How the results depend on the processing

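The 3 members called for the averaged TNF effect became 5 when every probe set was tested, 5 with the filter on dim genes and 6 with trended robust moderation, and 2 to 4 with 1 array left out. With the Xist and Eif2s3y covariates only 1 of these 3 calls was kept, Nusap1, and those of Tk1 and Cdc6 were lost. The 2 called on the arrays labelled mutant became 1 with centred arrays, with every probe set or with only the groups compared, 0 with the Xist and Eif2s3y covariates, and 1 to 2 with 1 array left out. Nusap1, called in wild type, was lost (0 called) with the mean of probe sets, with only the groups compared and with the covariates. The 10 related genes became 5 with the covariates and 6 to 11 with 1 array left out, the lowest count being without the second untreated array labelled mutant. Ticrr reversed with the mean of its probe sets (-0.0063, adjusted p = 0.971). The cause was not tested. Genotype and the interaction gave 0 calls in every alternative run.

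With the replicate block, which treats same-numbered arrays as pairs, the calls were 2 for the averaged effect, where Cdc6 was lost, 1 on the arrays labelled mutant, where Tk1 was lost, 1 in wild type and 10 related genes. Centring moved the median of the 39 averaged differences from 0.03 to -0.01 and that of all genes from -0.03 to -0.07, and cyclic loess moved them to 0.04 and 0.00, so the sign of differences this small is not fixed. With 3 arrays a group, differences below about 0.19 in 1 genotype lie within the typical 95% interval of these genes.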

Other observations

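Other probe sets of some members gave averaged TNF differences far from those described. A dim Cenpf probe set (mean 5.85) gave 0.44 and passed when every probe set was tested (limma adjusted p = 0.0478), against -0.02 for the bright one. Dimmer probe sets gave 0.51 for Ttk against -0.06, 0.47 for Tyms against 0.01, -0.36 for E2f1 against 0.06 and -0.29 for Rrm2 against -0.02. These were chosen after their values were seen.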
